A study of Aspergillus fumigatus with 4 samples.

Results

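The response of the thermotolerant compost fungus *Aspergillus fumigatus* Z5 to rice straw was described by comparing its transcriptome on rice straw with that on sucrose. The comparison took the raw read counts of 2 of the 4 libraries of the series, 1 per carbon source, and scaled each by its own total. Strain Z5 was the only strain, with no genetic change, and was shaken at 45 °C. The sucrose culture had sucrose as sole carbon source in a basic salts medium with yeast extract. For the rice straw culture, mycelium from a sucrose preculture, of 20 h by the labels and of another length by the methods of the study, was washed and moved for 16 h to the same salts without yeast extract, with powdered, washed and dried rice straw as the carbon source. It is not clear when the sucrose culture was harvested. The xylan and cellulose (Avicel) cultures were transferred in the same way and are given here beside the rice straw values. The study gives a higher concentration for sucrose than for rice straw. Rice straw therefore differed from sucrose in the transfer, in the yeast extract, in the amount of carbon source and possibly in the culture age as well as in the carbon source, and these cannot be told apart. All values below are reads per 1000000 mapped reads (RPM), and every gene is given by its Z5 locus tag.

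Rice straw is a lignified grass cell wall in which cellulose is embedded in arabinoxylan that carries acetyl and feruloyl groups, with some pectin, protein, silica and cuticular wax. Saprotrophic Aspergilli degrade it from outside with secreted glycoside hydrolases, lytic polysaccharide monooxygenases and esterases and take up the released sugars through membrane transporters. In the presence of easily used sugars many of these genes are repressed through the zinc finger protein CreA, a control known as carbon catabolite repression.

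The rice straw library held 7553138 reads and the sucrose library 7005719, so 1 read was worth 0.132 and 0.143 RPM, and 9275 and 9252 of the 9540 annotated genes had a read. The xylan and cellulose libraries held 6820702 and 7016686 reads. With 1 library a side there was no replicate check, and ratios carry exact 95% counting intervals that cover counting error only and not the spread between cultures. The intervals treat reads as independent. PCR reads without molecular identifiers are not independent molecules, so the intervals may be too narrow even for counting error. Markers of conidia and conidiophores, which a mycelial culture could also hold, were mostly low in both libraries. Of 11 markers, 4 reached 10 RPM and 2 were called higher on rice straw by the rule below, which called 7.61% of all tested genes higher and 7.12% lower. The 2 were the hydrophobin RodB (Y699_09371), with 4.85 RPM on sucrose and 41.8 RPM on rice straw, and the regulator FlbA (Y699_02729), with 85.9 RPM on sucrose and 462 RPM on rice straw. The spore wall hydrophobin RodA (Y699_00799) stood at 0.571 RPM on sucrose and 0.265 RPM on rice straw, and the pigment synthase PksP (Y699_02122) at 62.1 and 27.0 RPM. In the cellulose library these 2 genes stood at 512 and 607 RPM, and the marker list summed to 4805 RPM there, against 470.5 RPM on sucrose, 1038 RPM on rice straw and 567 RPM on xylan. The list also holds regulators of development such as FlbA, so its sums do not measure conidia alone. The part of conidia in the results was not tested.

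The rice straw and sucrose libraries differed in genes of many metabolic groups. A gene was called where the ratio of the 2 libraries was at least 4-fold, at least 1 of them reached 10 RPM and an exact binomial test of the reads, adjusted over 9408 genes with a read in either library, gave a q of at most 0.0001. By this rule 716 genes, or 7.61%, were higher on rice straw and 670 genes, or 7.12%, were lower. The test compares these libraries and not the conditions. The higher genes moved further: their median ratio was 9.05-fold against 6.34-fold for the lower ones, 54 against 18 exceeded 100-fold, and 9 against 0 exceeded 1000-fold. The higher genes took 26.5% of the rice straw reads and 2.16% of the sucrose reads, while the lower genes took 2.90% and 24.0%. On sucrose 12 of the higher genes had no read, whereas on rice straw 0 of the lower genes had none, so the lower genes were reduced but still detected. The median log2 ratio of all tested genes (with 0.5 reads added) was -0.30, and scaling by TMM factors moved it by 0.30 and the split of calls from 51.7% to 65.0% higher, with 875 genes higher and 471 lower. A ratio near the threshold is therefore less firm for lower than for higher genes: 207 of the lower and 127 of the higher genes lay between 4-fold and 5-fold, and 376 and 210 further genes lay between 3-fold and 4-fold.

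**Figure D1:**
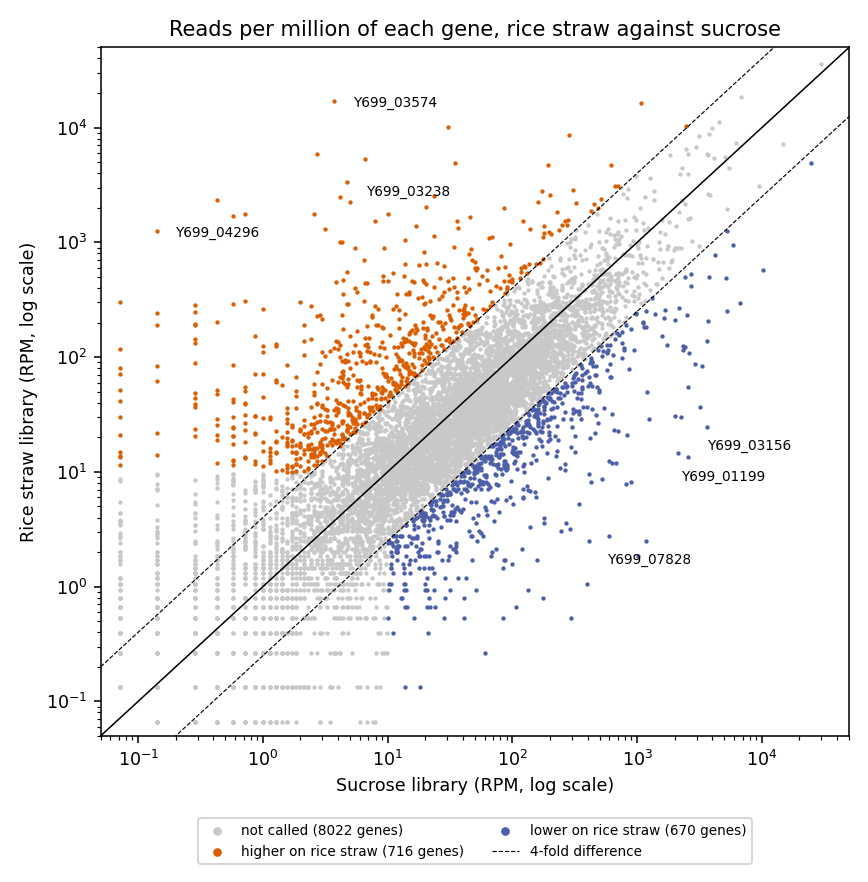
Each point is 1 of the 9408 genes with a read in either library, with RPM on sucrose (x axis, log scale) against RPM on rice straw (y axis, log scale). Colours mark the 716 higher, 670 lower and 8022 other genes, the solid line equal values, the dashed lines 4-fold, and values at 0 reads are drawn at 0.5 reads. The higher genes reach far from the diagonal at the upper left, up to galactomannoprotein Mp1 (Y699_03574), and the farthest lower genes include the siderochrome transporter Y699_01199, the copper transporter Y699_03156 and phenol hydroxylase Y699_07828.

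The groups of genes that moved differed in kind. Sugar transporters, cellulases, hemicellulases, esterases and a combined list of gluconeogenesis and glyoxylate cycle genes were called more often higher than lower. Iron uptake, ergosterol synthesis and glycolysis genes were called mostly lower. Most description lists were built from a table of genes that the study chose for varying across these libraries, so their high shares of called genes are not independent evidence. The enzyme and CAZyme lists came from the genome annotation.

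**Figure D2:**
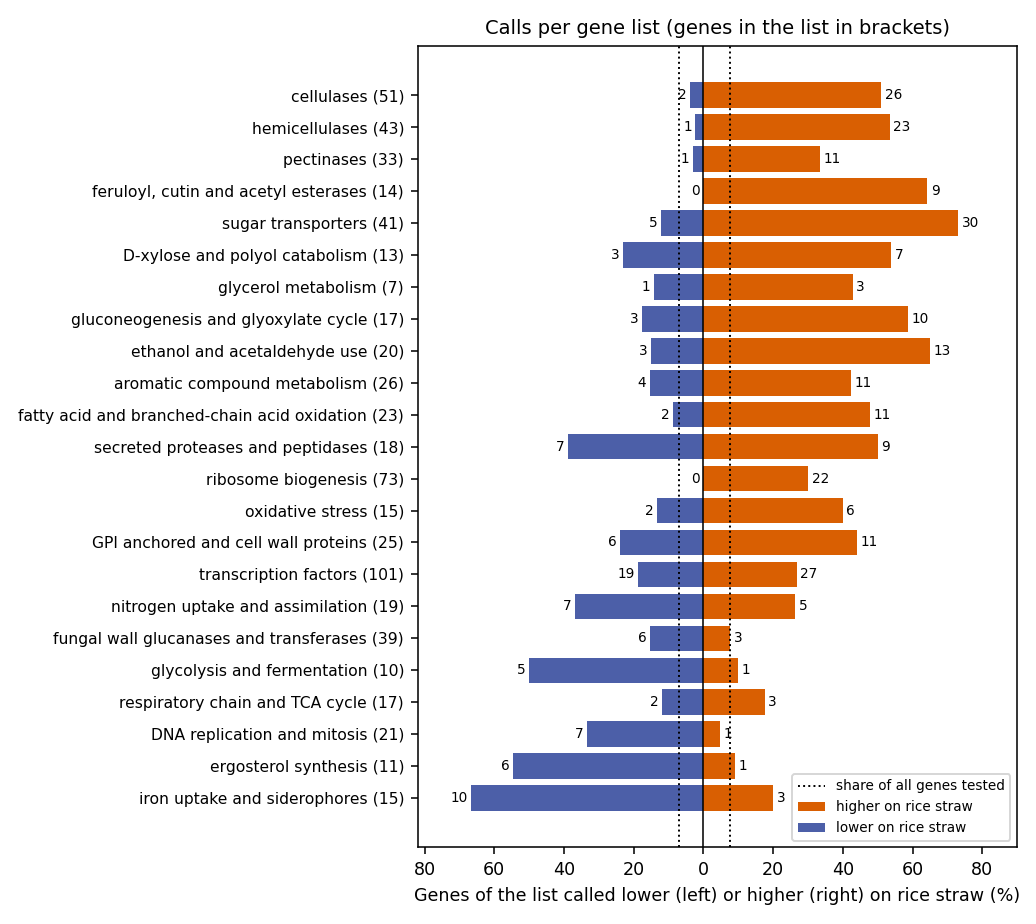
Bars give, for each gene list, the percentage of its members called lower (to the left) and higher (to the right) on rice straw against sucrose, and the dotted lines give the shares of all tested genes, 7.12% and 7.61%. Sugar transporters stand at 30 of 41 members higher, and the iron list at 10 of 15 members lower.

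Cellulase genes rose far more often than they fell. Of 51 annotated cellulases 26 were higher on rice straw and 2 lower, with a median log2 ratio of 3.47 and a summed level of 3921 RPM on sucrose and 26584 RPM on rice straw. Their sums were 32090 RPM on cellulose and 5406 RPM on xylan. Against cellulose 6 were called higher on rice straw and 7 lower, beside 4.26% and 5.76% of all tested genes. Against xylan 23 were higher and 1 lower, beside 4.56% and 4.68%. Family GH7, where the study places 2 of its cellobiohydrolases, summed to 3168 RPM on rice straw and 8873 RPM on cellulose. A cellobiohydrolase (Y699_07898), which releases cellobiose from chain ends, stood at 2.71 RPM on sucrose and 5938 RPM on rice straw, a ratio of 2189-fold (95% counting interval 1402 to 3637). Its levels on cellulose and xylan were 5397 and 8.94 RPM, so the cellulose value was close to that on rice straw and the xylan value was not. An endoglucanase (Y699_08692), which cuts within the chain, followed the same order with 3.14 RPM on sucrose, 1298.3 on rice straw, 632 on cellulose and 6.598 on xylan. A β-glucosidase (Y699_09150), which splits cellobiose to glucose, rose from 36.3 to 1521 RPM, and another (Y699_00572) rose from 19.3 to 468 RPM but was called lower than on cellulose, where it stood at 2568 RPM. The extracellular endoglucanase Y699_02871 went the other way, with 408 RPM on sucrose and 66.7 RPM on rice straw, and fell 6.12-fold (5.56 to 6.74). Genes with cellulose-binding modules of family CBM1 overlap the cellulase list. The study finds this module on endoglucanases that include Y699_08692 and Y699_02871. Of 26 such genes 16 were higher and 1 lower, with sums of 1922 RPM on sucrose, 18702 on rice straw, 23306 on cellulose and 2263 on xylan. Because of the shared genes this count is not separate from that of the cellulases.

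Copper-dependent lytic polysaccharide monooxygenases of family AA9, which cleave crystalline polysaccharides by oxidation, rose on rice straw from a sum of 152 to 7621 RPM, with 5296 RPM on cellulose and 1174 RPM on xylan. Of 8 AA9 genes 7 were higher on rice straw than on sucrose, 4 were also called higher than on cellulose and 6 higher than on xylan. Of all tested genes 4.26% were called higher than on cellulose and 4.56% higher than on xylan. The study places AA9 among its endoglucanase families, so AA9 genes can be in the cellulase count above as well. Gene Y699_02418 stood at 9.99 RPM on sucrose and 1765 RPM on rice straw, a ratio of 177-fold (95% counting interval 139.7 to 227), with 3.85 RPM on cellulose and 38.3 RPM on xylan. Gene Y699_05430 stood at 4.28 RPM on sucrose and 1010.2 RPM on rice straw, a ratio of 236-fold (165 to 349.9), with 28.5 RPM on cellulose and 51.5 RPM on xylan. Gene Y699_05110 stood at 1979 RPM on rice straw, against 86.1 RPM on sucrose, 42.0 RPM on cellulose and 35.8 RPM on xylan. These genes were thus at their highest on the complex substrate, at levels at least an order of magnitude above those in each of the other libraries. The fourth, Y699_03689, had 2 reads on sucrose and 249 RPM on rice straw, a ratio of 871-fold (241 to 7201), with 3.14 RPM on cellulose and 1.32 RPM on xylan. Genes Y699_06174, Y699_02424 and Y699_02044 did not show this order. Gene Y699_06174 stood at 1749 RPM on rice straw and 3972 RPM on cellulose, after 0.714 RPM on sucrose and beside 199 RPM on xylan. Gene Y699_02424 stood at 668 RPM on rice straw, 541 on cellulose, 845 on xylan and 50.1 on sucrose. Neither was called between rice straw and cellulose. Gene Y699_02044 had 3 reads on sucrose, 200.3 RPM on rice straw and 706 RPM on cellulose, and was not called between these 2 substrates. The AA9 gene Y699_04103, the only member not called and named after its values were seen, had 0.143 RPM on sucrose and 1.59 RPM on rice straw. Cellobiose dehydrogenases can pass electrons to AA9 enzymes. The genes Y699_02120, Y699_04685 and Y699_05507, which the study names as such, rose from 13.8 to 1051 RPM, from 28.4 to 369 RPM and from 12.1 to 122 RPM. On cellulose they stood at 3073, 40.3 and 91.5 RPM, and of these 3 only Y699_04685 was called higher on rice straw than there.

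Hemicellulase genes also rose more often than they fell. Of 43 annotated hemicellulases 23 were higher and 1 lower, with a median log2 ratio of 2.88. Their summed level was 711 RPM on sucrose, 9190.2 on rice straw, 5619.6 on cellulose and 1209.7 on xylan, so the xylan library held less hemicellulase message than the other transferred cultures. The endo-xylanase Y699_07611 had 3 reads on sucrose and 17821 on rice straw, a ratio of 5509.8-fold (95% counting interval 1885 to 26720.1), and stood at 2359 RPM on rice straw, 947 on cellulose and 146 on xylan. The endo-xylanase Y699_04481 stood at 4.14 RPM on sucrose and 2502 RPM on rice straw, a ratio of 604-fold (421 to 903), and at 2342 RPM on cellulose and 62.6 RPM on xylan. Xylanase Y699_07623 differed from these, since it was called higher on rice straw (110.3 RPM) than on cellulose (8.69 RPM) but not than on xylan (67.3 RPM), after 2.998 RPM on sucrose. The β-xylosidases, which release xylose from short chains, also rose, with Y699_05610 from 2.71 to 229.8 RPM and Y699_04662 from 4.42 to 355 RPM. The only lower entry of the table, Y699_01630, is described elsewhere as a C6 transcription factor and stood at 421 RPM on sucrose and 59.4 RPM on rice straw. It thus made up most of the summed level of 711 RPM on sucrose, so that sum may not be mostly hemicellulase message. Measured directly against the other substrates, where 4.26% and 5.76% of genes were called higher and lower than on cellulose and 4.56% and 4.68% higher and lower than on xylan, 9 hemicellulases were higher and 3 lower on rice straw than on cellulose, and 15 higher and 0 lower than on xylan.

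Esterases that open the grass cell wall were low on sucrose. Of 14 feruloyl, cutin and acetyl esterases 9 rose and 0 fell, with sums of 24.0 RPM on sucrose and 688 RPM on rice straw. No member reached 10 RPM on sucrose, so none could be called lower, and the count in that direction carries no information. Feruloyl esterases free ferulic acid, the phenolic that links arabinoxylan to lignin. Feruloyl esterase C (Y699_02419) stood at 6.57 RPM on sucrose, 148 on rice straw, 1.14 on cellulose and 4.11 on xylan, a ratio to sucrose of 22.5-fold (95% counting interval 16.8 to 30.9). Another feruloyl esterase (Y699_07554) stood at 0.714, 39.3, 4.70 and 0.293 RPM in the same order. A cutinase (Y699_02431), which attacks the cuticle polyester, stood at 9.14, 72.8, 14.7 and 3.52 RPM. All 3 were called higher on rice straw than on each of the other substrates. The 5 members that were not called were low in both libraries, for example FaeA (Y699_08936) at 0.714 RPM on sucrose and 4.77 RPM on rice straw. An extracellular lipase (Y699_00170) rose from 0.856 to 153 RPM, or 179-fold (81.9 to 488), and was likewise called above its levels on cellulose (27.8 RPM) and xylan (5.13 RPM).

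**Figure D3:**
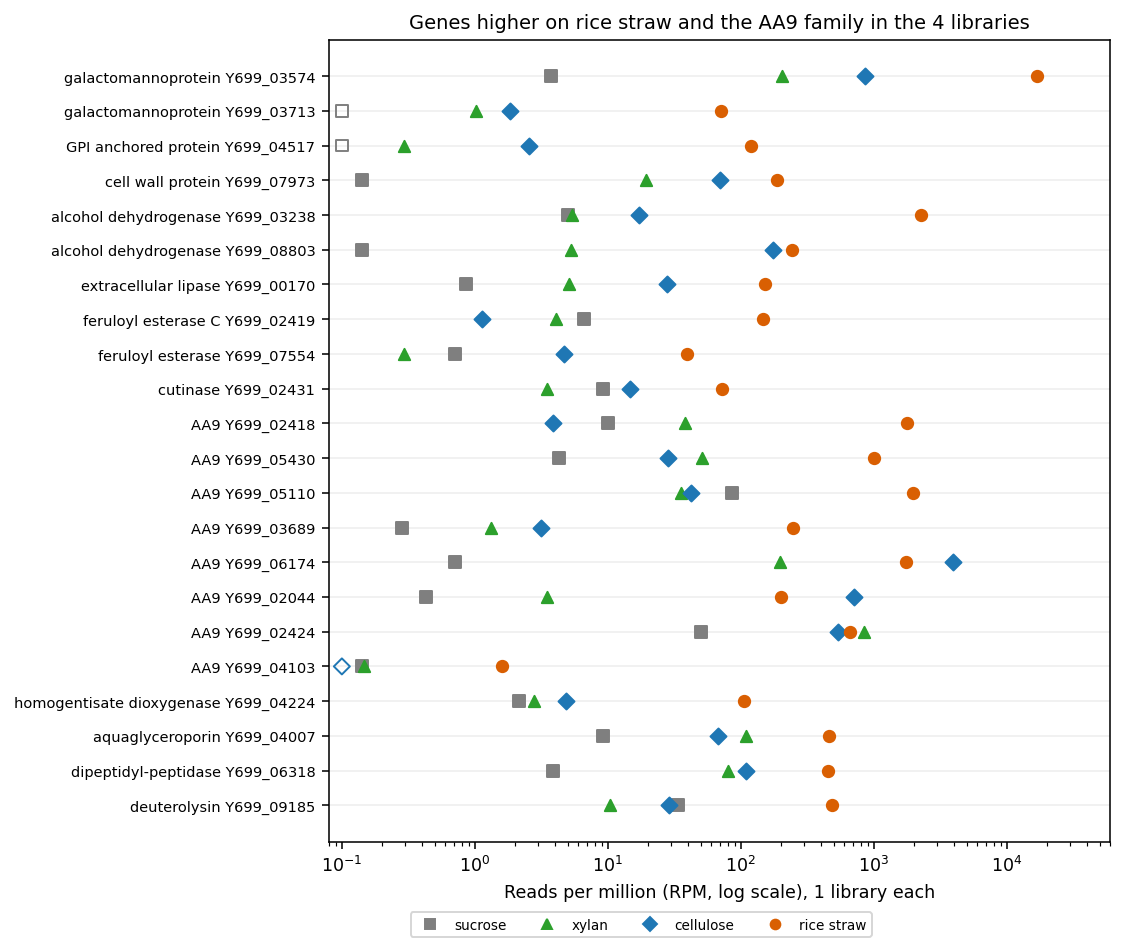
Points give the RPM (x axis, log scale) of 22 genes in the 4 libraries, and open symbols at the left edge stand for 0 reads. The rice straw point lies rightmost for galactomannoprotein Mp1 (Y699_03574), alcohol dehydrogenase Y699_03238, the AA9 genes Y699_02418, Y699_05430, Y699_05110 and Y699_03689, and feruloyl esterase C (Y699_02419), whereas AA9 gene Y699_02044 has its rightmost point on cellulose.

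Pectin-degrading enzymes took fewer reads than the enzymes above. Of 33 annotated pectinases 11 were higher and 1 lower, and their sum was 419 RPM on sucrose, 1226 on rice straw, 473 on cellulose and 542 on xylan. Pectate lyase Y699_05498 had 2 reads on sucrose and 39.3 RPM on rice straw, and pectate lyase F (Y699_07144) had 0 reads on sucrose and 13.8 RPM on rice straw, which is at least 32.2-fold higher against a floor of 3 counts. Exopolygalacturonase X (Y699_07404) rose from 0.856 to 30.6 RPM and endo-polygalacturonase Y699_05780 from 11.4 to 57.3 RPM, and both were called above cellulose and xylan. The extracellular polygalacturonase Y699_09200 fell from 53.7 to 3.05 RPM, a ratio of 17.6-fold (95% counting interval 11.6 to 28.1).

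Among the genes described as sugar transporters most rose and some fell. The study counts more sugar transporter genes in the genome than the 41 listed here. Descriptions came largely from genes that it chose for varying across these libraries, so the share of called genes does not describe the whole family. Of these 41 genes 30 rose and 5 fell, with a median log2 ratio of 3.996. The list sum was 3151 RPM on sucrose and 20132 RPM on rice straw, above the 11043 RPM on cellulose and 5426 RPM on xylan. A hexose transporter (Y699_07916) rose from 6.57 to 5324 RPM, a ratio of 811-fold (95% counting interval 608 to 1108), and stood at 2880.1 RPM on cellulose and 1089 RPM on xylan. The sugar transporter Y699_02054 rose from 4.71 to 3355 RPM and the monosaccharide transporter Y699_07397 from 34.4 to 4891 RPM, and on xylan they stood at 112 and 338 RPM. Some carriers were high on rice straw and on either cellulose or xylan, but not on both, and what induced them was not tested. A gene described as a lactose permease (Y699_09366) stood at 1545 RPM on rice straw and 1745 on cellulose but 7.85 on sucrose and 8.21 on xylan. A gene described as a maltose transporter (Y699_03783) stood at 277 RPM on rice straw and 425 on xylan but 2.43 on sucrose and 9.41 on cellulose. The monosaccharide transporter Y699_02697 made up most of the list sum on sucrose, with 2226 RPM on sucrose and 30.2 RPM on rice straw, and fell 73.7-fold (64.7 to 84.4). It stood at 37.3 RPM on cellulose and 97.9 RPM on xylan, so its high level was seen on sucrose alone. Of 3 members described as quinate transporters, Y699_03701 rose from 6.42 to 309 RPM and Y699_03855 from 7.42 to 224 RPM, whereas Y699_05168, named after its values were seen, stood at 71.1 RPM on sucrose and 24.0 RPM on rice straw and was not called.

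In central carbon metabolism, several genes of sugar breakdown were lower on rice straw. Several genes of a combined list of gluconeogenesis and the glyoxylate cycle were higher. Of 10 glycolysis and fermentation genes 5 fell and 1 rose, and their sum was 10672 RPM on sucrose and 1130.1 RPM on rice straw. Pyruvate decarboxylase PdcA (Y699_01443), the first step of ethanol formation, fell from 6621 to 294 RPM, a ratio of 22.5-fold (95% counting interval 21.6 to 23.5), with 69.4 RPM on cellulose and 4980.4 RPM on xylan. Phosphoglycerate kinase PgkA (Y699_08236) fell from 2709 to 527 RPM and glucokinase Y699_02243 from 37.4 to 4.63 RPM. The phosphofructokinase subunit Y699_03704, with 551 and 152 RPM, did not reach 4-fold, and the hexokinase Y699_04619 rose from 8.85 to 43.6 RPM. On xylan PdcA and PgkA stood at 4980.4 and 1586 RPM, nearer to sucrose.

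Of 17 genes of gluconeogenesis and the glyoxylate cycle 10 rose and 3 fell, and the list took 0.422% of the sucrose reads and 3.60% of the rice straw reads. The list summed to 35988 RPM on rice straw, of which the genes named below held only a part. The glyoxylate cycle, which allows growth on acetate and fatty acids, was represented by isocitrate lyase AcuD (Y699_09164), which rose from 13.7 to 652 RPM, or 47.6-fold (38.9 to 58.9), and malate synthase AcuE (Y699_07347), which rose from 283 to 8651 RPM, or 30.6-fold (29.3 to 32.02). AcuE was called higher than on cellulose (1824 RPM) and on xylan (1342 RPM), while AcuD stood close to its cellulose value of 660.4 RPM. FacB (Y699_05015), the transcriptional activator of acetate use in *A. nidulans*, rose from 132 to 542 RPM, a ratio of 4.11-fold that lies just inside the threshold. Acetyl-coenzyme A synthetase FacA (Y699_06473), a FacB target there, stood at 207 RPM on sucrose and 288 RPM on rice straw and was not called. A phosphoenolpyruvate synthase (Y699_05331) fell from 192 to 8.87 RPM. Among 17 genes of the respiratory chain and TCA cycle 3 rose and 2 fell (1 with TMM scaling), 11 had a log2 ratio below 0 and the median was -1.35. The count that fell was near the share of all tested genes, 7.12%. Of these 17 genes a citrate synthase (Y699_00380) and an alternative NADH dehydrogenase (Y699_08079) rose, from 699.7 to 3090.1 RPM and from 175 to 1114 RPM, whereas ATP synthase subunit ATP9 (Y699_06321) fell from 3706 to 204 RPM.

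The genes for ethanol and acetaldehyde use included a sharp contrast with the purified polymers. Of 20 such genes 13 rose and 3 fell, with a median log2 ratio of 3.10. The alcohol dehydrogenase Y699_03238 stood at 4.996 RPM on sucrose, 17.2 on cellulose and 5.42 on xylan and at 2259 RPM on rice straw, a ratio to sucrose of 452-fold (95% counting interval 325 to 649). A neighbouring pair, alcohol dehydrogenase Y699_08803 and aldehyde dehydrogenase Y699_08802, behaved otherwise and was also high on cellulose. Y699_08803 had 1 read on sucrose, 244 RPM on rice straw and 175 RPM on cellulose, and Y699_08802 had 0.856, 71.2 and 185 RPM. Aldehyde dehydrogenase AldA (Y699_04278) rose from 26.1 to 489 RPM, and AlcR (Y699_00602), which activates the ethanol utilization genes in *A. nidulans*, rose from 5.995 to 108 RPM.

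Some genes of pentose and glycerol catabolism rose as well. Xylose reductase Xyl1 (Y699_06810), the entry step for xylose, rose from 42.3 to 371 RPM, a ratio of 8.77-fold (95% counting interval 7.78 to 9.92), and stood at 301 RPM on cellulose and 624 RPM on xylan. Xylitol dehydrogenase Y699_08949 rose from 13.1 to 93.1 RPM and xylulose kinase Y699_00823 from 30.8 to 235 RPM, and on xylan they stood at 374 and 273 RPM. Over the list of 13 D-xylose and polyol genes 7 rose and 3 fell, but 0 were lower with TMM scaling. In the glycerol list of 7 genes, of which 3 rose and 1 fell (5 and 0 with TMM scaling), the aquaglyceroporin Y699_04007, a glycerol channel, rose from 9.14 to 462 RPM and the glycerol kinase Y699_04006 from 36.4 to 1330.0 RPM. The channel was called higher than on cellulose (67.4 RPM) and xylan (109 RPM). The repressor gene creA (Y699_02675) was itself higher on rice straw, from 614 to 4714 RPM, a ratio of 7.68-fold (95% counting interval 7.44 to 7.93), and stood at 3366 RPM on cellulose and 673 RPM on xylan.

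**Figure D4:**
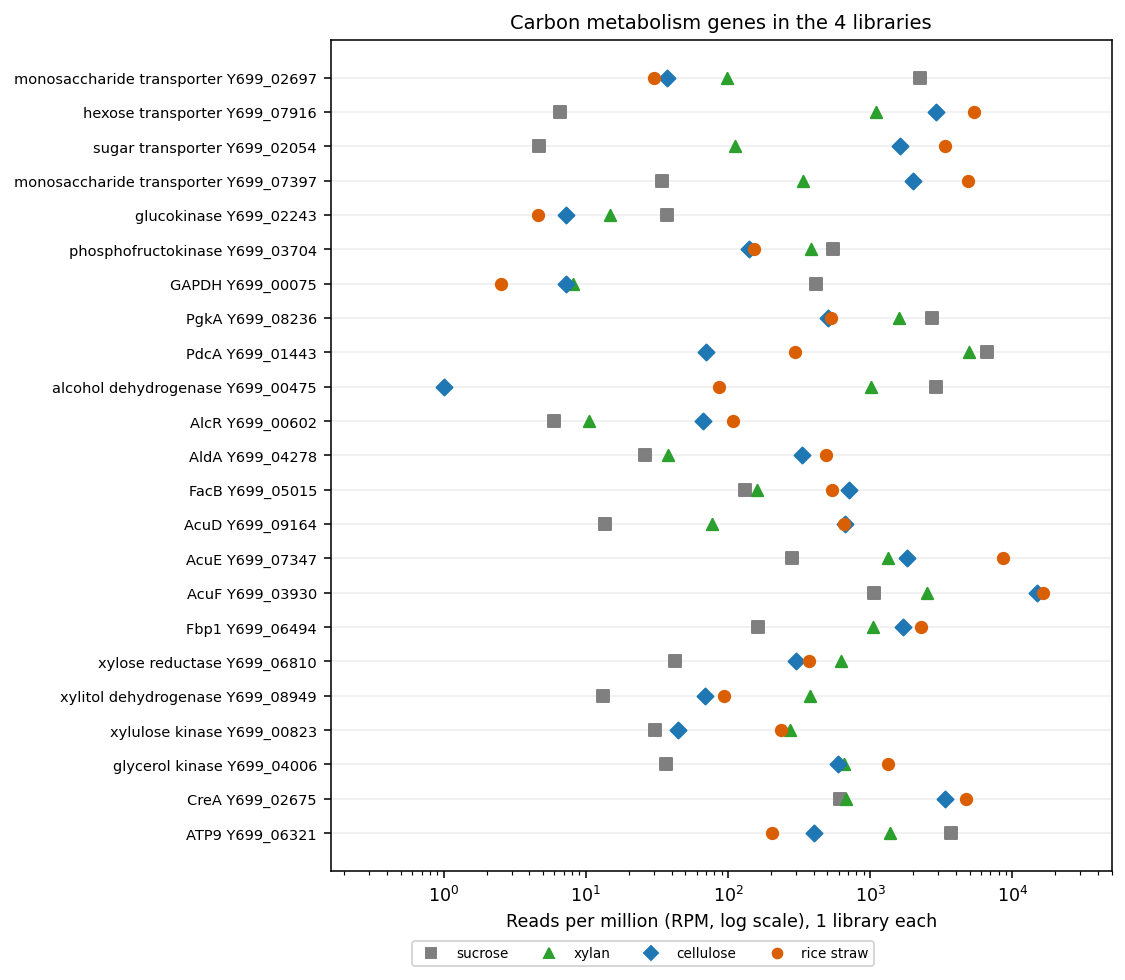
Points give the RPM (x axis, log scale) of 23 genes of sugar uptake and carbon metabolism in the 4 libraries. PdcA (Y699_01443), PgkA (Y699_08236) and the monosaccharide transporter Y699_02697 have their rice straw points far left of sucrose, and AcuD (Y699_09164), AcuE (Y699_07347) and the hexose transporter Y699_07916 have them far right.

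Genes for aromatic compounds moved in both directions. Of 26 members 11 rose and 4 fell. Homogentisate dioxygenase (Y699_04224), a ring-opening enzyme of phenylalanine and tyrosine breakdown that was named after its values were seen, stood at 2.14 RPM on sucrose, 105 on rice straw, 4.85 on cellulose and 2.79 on xylan. Benzoate 4-monooxygenase (Y699_04095) rose from 7.42 to 234 RPM and was similar on cellulose at 163 RPM. Salicylate hydroxylase Y699_03216 rose from 31.3 to 392 RPM and was called above cellulose (70.1 RPM) and xylan (90.2 RPM). A 4-coumarate-CoA ligase (Y699_05055), which activates hydroxycinnamic acids and was likewise named after its values were seen, rose from 0.856 to 21.4 RPM. The phenol 2-monooxygenases Y699_07352 and Y699_05001 fell, from 316 to 14.8 RPM and from 96.6 to 8.34 RPM. Of 23 genes for the oxidation of fatty acids and branched-chain amino acids 11 rose and 2 fell (0 fell with TMM scaling), led by the coenzyme A transferase Y699_06872, which rose from 13.6 to 506 RPM and was also called above cellulose and xylan. The count that fell was near the share of all tested genes, 7.12%.

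Secreted proteases and peptidases were split, with 9 of 18 higher and 7 lower. Dipeptidyl-peptidase Dpp4 (Y699_06318), which removes dipeptides from protein ends, rose from 3.85 to 455 RPM, a ratio of 118-fold (95% counting interval 81.1 to 179.6), with 109 RPM on cellulose and 80.2 RPM on xylan. The aspartic endopeptidase Y699_02278 rose from 9.14 to 508 RPM, dipeptidyl-peptidase DppV (Y699_02913) from 15.6 to 462 RPM and the metalloprotease deuterolysin Y699_09185 from 33.7 to 486 RPM. Dpp4 and deuterolysin were both called above cellulose and xylan. Among the lower members, the serine protease Y699_08513 fell from 41.3 to 0.794 RPM and tripeptidyl peptidase A (Y699_09209) from 190.0 to 28.2 RPM, the latter still above its 3.28 RPM on cellulose and 3.52 RPM on xylan.

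Nitrogen genes moved in both directions. Of 19 members 5 rose and 7 fell. The enzymes of purine and urea breakdown rose: urate oxidase UaZ (Y699_02786) from 136 to 643 RPM, allantoinase Dal1 (Y699_04787) from 33.8 to 911 RPM and urea amidolyase (Y699_09076) from 6.99 to 124 RPM. Genes for nitrate and ammonium use fell: nitrate reductase NiaD (Y699_05084) from 487 to 26.5 RPM, the ammonium transporter MeaA (Y699_03361) from 226 to 15.1 RPM and glutamate synthase Glt1 (Y699_01116) from 1575 to 154 RPM. The salts of the medium contained urea and ammonium, with yeast extract on sucrose only. The NAD-dependent glutamate dehydrogenase Y699_03373, which releases ammonium from glutamate, stood at 3110.3 RPM on sucrose and 8385 RPM on rice straw and did not reach 4-fold. Phosphate genes moved similarly in both directions, with 5 of 15 higher and 4 lower. The acid phosphatases Y699_08778 and Y699_06909 rose, from 16.7 to 192 RPM and from 126 to 606 RPM, and were called above cellulose and xylan, while the acid phosphatase PHOa (Y699_06918) fell from 47.8 to 1.72 RPM.

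Genes of the fungal surface moved in both directions. Of 25 GPI-anchored and cell wall proteins 11 rose and 6 fell. The galactomannoprotein Mp1 (Y699_03574), a cell wall antigen of *A. fumigatus*, had 26 reads on sucrose and 127515 on rice straw, that is 3.71 RPM on sucrose and 16882 RPM on rice straw, a ratio of 4549-fold (95% counting interval 3104 to 6964). It stood at 858 RPM on cellulose and 205 RPM on xylan, and it took more rice straw reads than any other gene called higher. Another galactomannoprotein (Y699_03713) and a GPI-anchored protein (Y699_04517) had 0 reads on sucrose and 71.0 and 118 RPM on rice straw, at least 166-fold and at least 276-fold higher. The cell wall protein Y699_07973 had 1 read on sucrose and 189 RPM on rice straw. Proteins of the same class fell, among them Y699_07627 from 524 to 8.61 RPM and Y699_07419 from 270.5 to 3.57 RPM. Y699_07419 stood at 135 RPM on cellulose and 132 RPM on xylan.

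Fewer enzymes of wall polysaccharides were called, and of all tested genes 7.61% were called higher and 7.12% lower. Among 29 chitin and chitosan enzymes 0 fell and 7 rose, including chitinase ChiA1 (Y699_00332) from 669 to 3121 RPM and a chitin-binding protein (Y699_04924) from 9.99 to 462 RPM. Among 16 chitin and glucan synthases 0 rose and 2 fell (1 rose with TMM scaling), 1 of them chitin synthase C (Y699_00049), which fell from 338 to 48.3 RPM. Among 39 fungal wall glucanases and transferases 3 rose, a share near that of all tested genes, and 6 fell (4 with TMM scaling). The list sums were 26909 RPM on sucrose and 17888 RPM on rice straw, and the median log2 ratio was -0.28, a sign that turned with TMM scaling. The β-1,3-glucanosyltransferase Gel2 (Y699_04274) was among the 3 and rose from 68.5 to 1105 RPM.

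Iron acquisition genes fell on rice straw. Of 15 iron uptake and siderophore genes 10 were lower on rice straw and 3 higher (9 lower with TMM scaling), with a median log2 ratio of -2.87 and list sums of 786 RPM on rice straw and 5339 RPM on sucrose, with 1956 RPM on cellulose and 2733 RPM on xylan. *A. fumigatus* acquires iron by secreted siderophores, which are synthesized by nonribosomal peptide synthetases and taken up again by specific transporters, and by reductive assimilation at the cell surface. On the siderophore side, the siderochrome transporter Y699_01199 stood at 2575 RPM on sucrose, 1023 on cellulose, 731 on xylan and 13.4 on rice straw, and its ratio between sucrose and rice straw was 193-fold (95% counting interval 158 to 237). The peptide synthetase SidD (Y699_07652), which makes fusarinine C, stood at 83.5, 37.3, 40.8 and 0.530 RPM in the same order. The transporter Y699_07650 beside it stood at 414, 134, 338 and 9.53 RPM. For each of these 3 genes rice straw was lowest by a wide margin and was called below cellulose and below xylan. On the reductive side, the ferroxidase Fet3 (Y699_00335) fell from 627 to 32.04 RPM and the permease FtrA (Y699_00336) from 608 to 67.0 RPM, but on cellulose they stood at 21.1 and 114 RPM, so both were low there as well. The 3 higher members were all surface reductases, with Y699_07482 from 5.995 to 103 RPM, Y699_04931 from 41.5 to 286 RPM and Y699_01469 from 19.0 to 109 RPM. Reductases did not rise as a class, since the metalloreductase Y699_08517 was called lower, a call that was lost with TMM scaling. The synthetase SidC (Y699_09376), which makes the intracellular siderophore ferricrocin, stood at 100.2 RPM on sucrose and 43.0 RPM on rice straw and was not called. Over the list, rice straw was called higher than cellulose for 0 genes and lower for 5, and higher than xylan for 2 and lower for 8. Of all tested genes 4.26% and 5.76% were called higher and lower than on cellulose, and 4.56% and 4.68% than on xylan.

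Genes near the siderophore transporters fell with them. Metabolite cluster 2 of the genome annotation (Y699_01193 to Y699_01206), which contains Y699_01199, had 8 of 14 genes lower and sums of 4158 RPM on sucrose and 43.2 RPM on rice straw, with 1795 RPM on cellulose and 1229 RPM on xylan. Within it, Y699_01200 fell from 398 to 1.06 RPM and Y699_01197 from 809 to 7.81 RPM, neither of which has a description. The 7 consecutive genes Y699_07649 to Y699_07655 around SidD summed to 730 RPM on sucrose and 28.2 RPM on rice straw. Elsewhere among the tags, the pair Y699_04912 and Y699_04913, also without a description, fell from 293 to 0.530 RPM and from 1009 to 1.85 RPM, with 85.9 and 776 RPM on cellulose. The copper transporter Y699_03156 stood at 3649.6 RPM on sucrose, 1154 on cellulose, 1730.2 on xylan and 24.8 on rice straw, a ratio between sucrose and rice straw of 147-fold (95% counting interval 128 to 171).

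**Figure D5:**
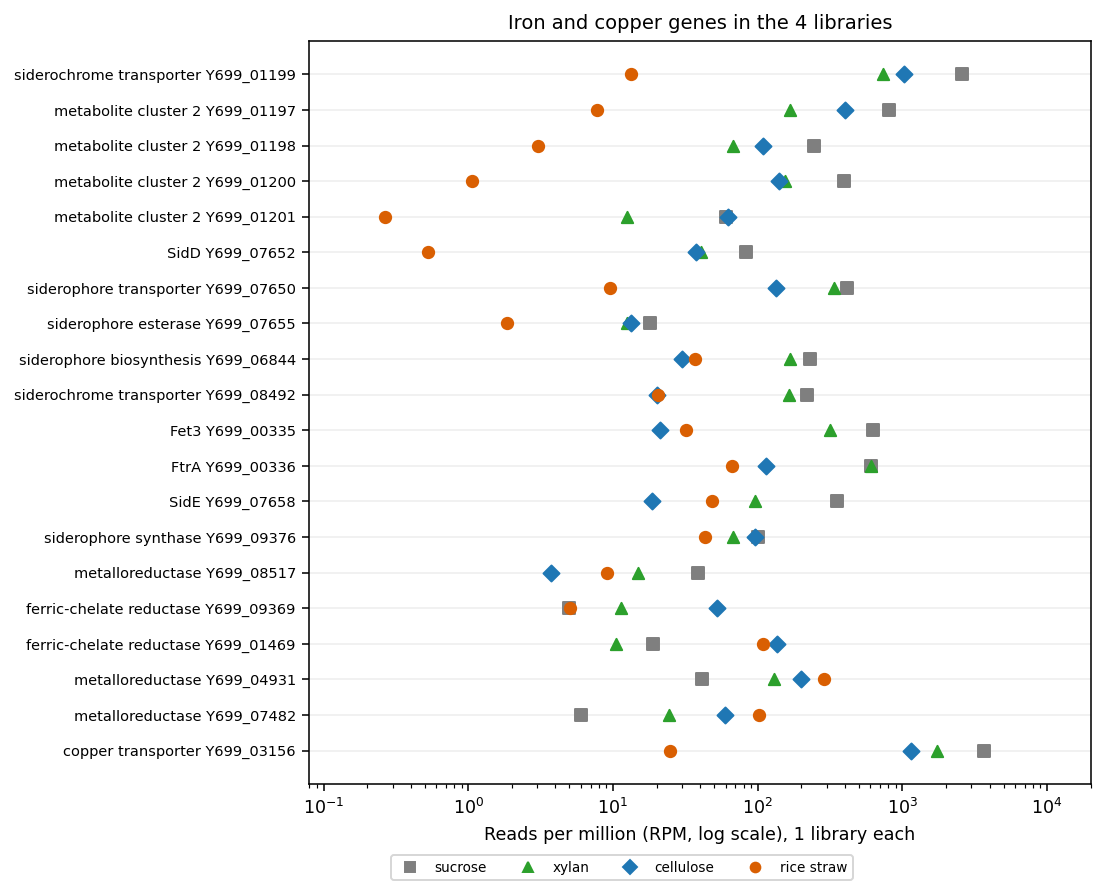
Points give the RPM (x axis, log scale) of 20 iron and copper genes in the 4 libraries. For the siderochrome transporter Y699_01199, its cluster neighbours, SidD (Y699_07652) and the copper transporter Y699_03156 the rice straw point lies left of the other libraries, while the reductases Y699_07482, Y699_04931 and Y699_01469 lie right of sucrose.

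Oxidative stress genes rose more often than they fell. Of 15 members 6 rose and 2 fell. The superoxide dismutase SOD1 (Y699_00764), which in fungi carries copper and zinc, rose from 56.8 to 504 RPM, or 8.87-fold (8.002 to 9.86), and stood at 31.1 RPM on cellulose and 100.1 RPM on xylan. The flavohemoprotein Y699_05478, which detoxifies nitric oxide, rose from 7.42 to 47.0 RPM, and thioredoxin Y699_05870 from 1.28 to 60.5 RPM. Alkyl hydroperoxide reductase (Y699_07471), a peroxide-removing enzyme, fell from 1651 to 218 RPM.

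Growth-related groups diverged. Of 73 ribosome biogenesis genes 22 rose and 0 fell (31 rose with TMM scaling), 71 of 73 had a log2 ratio above 0, and the list median was 1.64. The small nucleolar ribonucleoprotein component IMP4 (Y699_05059) rose from 11.3 to 122 RPM, nucleolin Nsr1 (Y699_01780) from 73.8 to 416 RPM and the RNA polymerase I and III subunit Rpc40 (Y699_02502) from 15.7 to 132 RPM. Cellulose gave higher levels still, with a list sum of 19515 RPM against 8116 on rice straw, 3339 on xylan and 2796 on sucrose. Genes of DNA replication and mitosis did not follow: 1 of 21 rose and 7 fell (2 with TMM scaling), among them the spindle kinesin BimC (Y699_08840) from 194 to 25.0 RPM. Of 11 ergosterol genes 6 fell and 1 rose, and the list sum was 11075 RPM on sucrose and 2994 RPM on rice straw. Sterol 14-demethylase Cyp51A (Y699_06061), the target of azole antifungals, fell from 1168 to 182 RPM, a ratio of 6.41-fold (95% counting interval 6.05 to 6.79), and stood at 46.0 RPM on cellulose and 909.9 RPM on xylan. The sterol 5,6-desaturase Y699_04605 fell from 581 to 115 RPM. Squalene monooxygenase Erg1 (Y699_00627) stood at 2108 RPM on sucrose and 892 RPM on rice straw and did not reach 4-fold.

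Regulatory genes were called in both directions. Of 101 genes described as transcription factors 27 rose and 19 fell, with a median log2 ratio of 0.75. Of these 101 genes 3 were called higher and 10 lower on rice straw than on cellulose. The shares of all tested genes in that comparison were 4.26% and 5.76%. The C6 transcription factor Y699_03308 rose from 17.0 to 1378 RPM, a ratio of 81.1-fold (95% counting interval 67.7 to 98.0), and stood at 1082 RPM on cellulose and 76.4 RPM on xylan. The bZIP factor JlbA (Y699_00135) rose from 196 to 1218 RPM, and the C6 finger protein Y699_03653 fell from 422 to 19.6 RPM. EsdC (Y699_08892), a protein of early sexual development in *A. nidulans*, rose from 30.5 to 10018 RPM, a ratio of 328-fold (287 to 377), with 7199 RPM on cellulose and 2649 RPM on xylan. Divided by coding length its level was 38.9 RPM per kilobase on sucrose and 12745 on rice straw, beside 4.34 and 19745.5 for Mp1 (Y699_03574), so these were of the same order on rice straw. The small heat shock protein Hsp12 (Y699_04375) rose from 1.86 to 66.7 RPM while its list of 19 chaperones had 4 members higher and 2 lower (1 lower with TMM scaling). Of all tested genes 7.61% were called higher and 7.12% lower, so the lower count was near the share of all genes.

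Called genes also lay side by side along the locus tags. Stretches of at least 4 consecutive called genes numbered 5 for higher genes, with 20 genes and none longer than 4, and 10 for lower genes, with 56 genes and up to 10 in a row. Consecutive tags follow the annotation order, and distances were not used here. Among the higher stretches, Y699_02428 to Y699_02431, which ends in the cutinase, summed to 31.97 RPM on sucrose and 393 on rice straw. The stretch Y699_05308 to Y699_05311, with a C6 transcription factor, a monosaccharide transporter, a β-galactosidase and a cellulase, summed to 9.14 RPM on sucrose and 277 RPM on rice straw. Some of the lower stretches held genes of secondary metabolism or glycosyl transfer, and several held mostly genes without a description. The longest, Y699_07826 to Y699_07835 with a polyketide synthase, summed to 3814 RPM on sucrose, 60.0 on rice straw, 38.2 on cellulose and 209 on xylan. The stretch Y699_04511 to Y699_04516, with a prenyltransferase and a toxin biosynthesis protein among its 6 genes, summed to 811 RPM on sucrose and 35.0 on rice straw. The stretch Y699_07352 to Y699_07357, with the phenol 2-monooxygenase above and a nonribosomal peptide synthase, summed to 1743 RPM on sucrose, 153 on rice straw, 272 on cellulose and 3867 on xylan. The stretch Y699_05769 to Y699_05773, with a nucleotide-sugar transporter and a pair of glycosyl transferases, summed to 1030.3 RPM on sucrose and 95.3 on rice straw. Outside such stretches the toxin biosynthesis protein Y699_09439, described as Fum3, fell from 594 to 2.78 RPM, or 214-fold (139.6 to 346).

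A few abundant genes carried much of the library. The 10 most abundant genes took 14.7% of the rice straw reads and 12.0% of the sucrose reads. Gene Y699_01787, without a description, was at the top on rice straw and stood at 29838 RPM on sucrose and 36104 RPM on rice straw, which was not called. Gene Y699_03637, also without a description, fell from 24633 to 4916 RPM, a ratio of 5.01-fold (95% counting interval 4.96 to 5.07), while it stood at 20727 RPM on cellulose and 28399 RPM on xylan. The hypothetical protein Y699_05963 fell from 10117 to 573 RPM and had 21.2 RPM on cellulose. Descriptions were on hand for 2591 of the 9540 genes, and they were missing for 239 of the lower but only 82 of the higher genes, so the groups above describe the rise on rice straw more completely than the fall.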

How the data were processed

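Poly(A) mRNA of 1 culture per carbon source was converted to cap-selected full-length cDNA and sequenced on an Illumina instrument. The authors mapped clean reads to the Z5 genome and its annotated genes and deposited raw read counts per gene together with RPM, which is count divided by the library total and not by gene length. Bowtie 0.12.2 is named in the submitters' processing notes, and the handling of strand and of reads that map to several places is not given in the sources used here, so near-identical, overlapping and antisense genes may share reads. The deposited fold changes, p-values and q-values of the authors' own comparisons were not used. Gene lengths are coding lengths.

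Raw counts of rice straw and sucrose were scaled by their totals in Python 3.11.15 (pandas 2.3.3, SciPy 1.17.1). Genes were called at 4-fold, 10 RPM in either library and a Benjamini-Hochberg adjusted q of at most 0.0001 from an exact two-sided binomial test over 9408 genes, a rule that follows the thresholds of the study. Ratios with a library at 0 reads used a floor of 3 counts per library (0.428 RPM on sucrose), and log2 ratios added 0.5 reads. Direct comparisons of rice straw with cellulose and with xylan used the same rule. No replicate exists, so no spread between cultures was estimated. Alternatives were TMM factors (edgeR 4.0.16), DESeq2 1.42.0 size factors, totals without the most abundant 1% of genes, no RPM minimum, other fold and q thresholds, 1 read added, and an edgeR exact test with an assumed biological variation. The scripts were tested on simulated data.

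Genes could be named by a rule with these parts: those that the study names singly, 20 genes in each direction with the end of the interval closest to 1 at the greatest distance from 1, at most 6 called members per list and direction, those of highest RPM, the 10 most abundant genes of each library, and all members of lists of at most 20 genes. Not every gene that the rule allows is described. A gene outside it is said to have been named after its values were seen, apart from the first and last tags of a stretch. The comparison, the lists and the conidial markers were chosen with earlier results of these data known. List counts were given without a set test.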

Additional observations from a re-analysis of the deposited data

How the results depend on the processing

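With 1 library per carbon source no library could be left out, and no spread between cultures is known. No paired analysis was possible because each carbon source has 1 library. The 716 higher and 670 lower genes became 875 and 471 with TMM factors, 878 and 471 with DESeq2 size factors, 800 and 566 without the most abundant 1% of genes, 834 and 793 with no RPM minimum, and 692 and 637 when edgeR was given a biological coefficient of variation of 0.2. A 2-fold threshold gave 1358 and 2058, an 8-fold threshold 397 and 240, and an assumed coefficient of variation of 0.4 gave 153 and 61, so the counts depend on the fold threshold and on a replicate spread that was not measured. Medians of 4 lists changed sign with scaling: laccases and peroxidases from -0.19 to 0.10 (TMM) and 0.11 (DESeq2), fungal wall glucanases from -0.28 to 0.013 and 0.017, amino acid and peptide transporters from -0.12 to 0.17 with both and 0.043 without the top 1%, and allergens from -0.28 to 0.019 and 0.023. The median of all genes was 0.00057 with DESeq2 factors. Of 537 named genes, 33 lower ones lost their call and 10 gained one with TMM factors, and 0 changed direction. Of 94 list counts, 83 stayed within 1.5 times with TMM factors and 8 with the coefficient of variation of 0.4. All 4 counts against cellulose and xylan stayed within 1.5 times under the 3 scalings.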
